A study of Mus musculus with 24 samples.

Results

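Pphln1 and 6 genes linked to the same silencing pathway (Mphosph8, Tasor, Morc2a, Setdb1, Atf7ip and Trim28) were followed through an ATAC-seq series of neuronal nuclei from mouse striatum. The members were the peaks of the deposited count table whose annotated gene is 1 of these 7, which gave 41 of 147020 peaks. Atf7ip held 22 of them, Pphln1 5, Mphosph8 4, Tasor 4, Morc2a 3, Setdb1 2 and Trim28 1. A low-count filter kept 40 of the 41. The peak it removed, at an Atf7ip intron, averaged 7.08 counts per library. Pphln1 was chosen because a peak in its intron differed between Q140_Msh3KO and Q140 animals in earlier results of these data. Values of that comparison are therefore given as a description for every member.

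ATAC-seq uses the Tn5 transposase to cut and tag DNA that is open, so counts in a peak measure accessibility. Q140_Msh3KO animals were heterozygous for the Q140 knock-in allele of Htt, a huntingtin allele with an expanded CAG repeat, and were Msh3-/-. Q140 animals carried the same heterozygous allele with Msh3 present, Msh3KO animals were Msh3-/- with normal Htt, and WT animals were wild type. All were C57BL/6 mice of 12 months, and each genotype had 6 animals, 3 female and 3 male, with 1 library each. Nuclei were sorted for NeuN, a protein of most neuronal nuclei, so each library pools the neuron types of the striatum. The repeat length of individual animals is not used here.

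The HUSH complex (human silencing hub) is built from TASOR, MPP8, which Mphosph8 encodes, and periphilin, which Pphln1 encodes. As worked out mostly in human cells, it finds recently inserted or intronless transcribed DNA such as LINE-1 elements, and works with the methyltransferase SETDB1, its partner ATF7IP and the ATPase MORC2 to deposit the repressive mark H3K9me3. TRIM28 brings SETDB1 to endogenous retroviruses through zinc finger proteins and is a neighbouring route to the same mark. Msh3 encodes a DNA mismatch repair protein, and without it expanded CAG repeats in mouse striatum no longer lengthen with age.

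Total counts in peaks ran from 4372251 to 11736557 per library, and CPM below are read counts scaled to the TMM library size. Start sites of 3 neuronal and 7 striatal projection neuron genes were open in all groups, with summed levels of 76.4 to 128 and 141 to 226 CPM. Start sites of Gfap, Aqp4 and Slc1a3 (astrocytes) and Cx3cr1, P2ry12 and Csf1r (microglia) held no peak. The ranges overlapped between genotypes for each marker list, and no listed marker passed the threshold in Q140_Msh3KO vs Q140 or in Q140 vs WT. Q140 F2 held 1.47% of its counts on X, below the 1.72% to 1.94% of the other females and just below the 1.49% to 1.59% of the males. Q140_Msh3KO M1 held 12.7% of its counts in its 10 highest peaks. Both were kept, and results that change without them are marked. In pooled nuclei, fewer nuclei open at a site and less opening per nucleus cannot be told apart.

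The start sites of Pphln1, Mphosph8, Tasor and Atf7ip are shown because these 4 genes held all of the member peaks that differed in Q140 vs WT, while none of their start sites passed the threshold. Each window holds the 250 bases before the RefSeq start (GRCm38.p6, plus strand, 5′ to 3′). The positions are chr15:93398100-93398349 for Pphln1, chr14:56667998-56668247 for Mphosph8, chr14:27428584-27428833 for Tasor and chr6:136518601-136518850 for Atf7ip. Capitals mark matches, on either strand, to TGACG (the core of a CRE), GGGCGG (SP factors) or CCAAT (NF-Y). No matches overlapped.
Pphln1: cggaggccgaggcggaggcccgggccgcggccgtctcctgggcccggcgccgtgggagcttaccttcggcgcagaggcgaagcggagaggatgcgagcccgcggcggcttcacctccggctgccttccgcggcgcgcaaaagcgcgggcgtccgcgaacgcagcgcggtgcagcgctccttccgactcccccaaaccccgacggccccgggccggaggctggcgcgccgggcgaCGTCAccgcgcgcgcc
Mphosph8: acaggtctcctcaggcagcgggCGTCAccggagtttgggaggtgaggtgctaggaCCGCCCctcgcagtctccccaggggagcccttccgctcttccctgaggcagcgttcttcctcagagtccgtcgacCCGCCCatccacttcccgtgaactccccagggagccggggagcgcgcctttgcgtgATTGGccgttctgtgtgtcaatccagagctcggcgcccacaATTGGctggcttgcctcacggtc
Tasor: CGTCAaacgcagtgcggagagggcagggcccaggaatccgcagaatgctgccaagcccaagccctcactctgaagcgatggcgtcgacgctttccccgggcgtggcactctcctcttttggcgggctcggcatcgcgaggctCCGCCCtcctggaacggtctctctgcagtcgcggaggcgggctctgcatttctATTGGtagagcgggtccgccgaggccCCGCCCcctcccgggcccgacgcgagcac
Atf7ip: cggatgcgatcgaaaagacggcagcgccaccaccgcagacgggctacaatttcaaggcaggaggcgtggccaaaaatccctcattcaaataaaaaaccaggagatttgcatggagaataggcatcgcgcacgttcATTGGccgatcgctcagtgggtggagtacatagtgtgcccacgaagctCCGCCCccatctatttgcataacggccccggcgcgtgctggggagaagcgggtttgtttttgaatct
The Pphln1 window held a G plus C share of 78.8% and 46 CpG, against medians of 52.4% and 6 over 32851 promoters. Its 1 match was to the CRE core, which 17.8% of promoters hold. The Mphosph8 window held 1 CRE core, 2 SP motifs and 2 NF-Y motifs. The Tasor window held 1 CRE core, 2 SP motifs and 1 NF-Y motif, and the Atf7ip window held 1 SP and 1 NF-Y motif. The SP motif was in 32.7% and the NF-Y motif in 33.8% of promoters. The NRF1 motif TGCGCA, in 6.43% of promoters, and the ETS motif CCGGAAG, in 6.91%, were also searched on both strands and matched none of the 4 windows. RefSeq gives Pphln1 a second start, whose window (chr15:93398214-93398463, not printed) overlaps the first and holds 1 ETS match.

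Accessibility fell in Q140 animals at 3 of the 5 peaks labelled Pphln1, and most at 1 intronic site. Over all tested peaks, 10.3% were called in Q140 vs WT and 6.11% were lower. That peak lies in intron 5 of 8 (chromosome 15, 93443416 to 93444131, GRCm38), +45.3 kb from the start, and overlaps a short (CTCTG)n repeat. It held 11.0, 12.9 and 17.6 CPM (lowest, median and highest) in Q140_Msh3KO animals and 4.53, 5.25 and 5.56 CPM in Q140 animals. In Msh3KO animals it held 16.2, 17.7 and 25.3 CPM, and in WT animals 12.8, 19.7 and 23.9 CPM. All 6 Q140 animals lay below every animal of the other 3 genotypes, which the plot of Pphln1 peaks by library shows. Over all tested peaks, 3% had all 6 Q140 libraries below all 6 WT libraries. The share with Q140 below all 3 genotypes was not counted. The gap to Q140_Msh3KO is part of the comparison that chose Pphln1.

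In Q140 vs WT the +45.3 kb peak fell by 1.87 ± 0.15 on the log2 scale (SE, edgeR adjusted p = 4.0e-11), a level 0.275 times that of WT. By p it ranked 2 of 146155 tested peaks, and 1 among those lower in Q140. This comparison shares the Q140 libraries with the one that chose Pphln1, so it is not independent of the choice. In Msh3KO vs WT, which shares no library with that choice, the log2 difference was 0.04 ± 0.13 (95% interval -0.22 to 0.31). In Q140_Msh3KO vs Q140 the described difference was 1.37 ± 0.15.

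In Q140_Msh3KO animals the +45.3 kb peak averaged 13.4 ± 2.49 CPM (SD, n = 6), against 19.2 ± 3.42 CPM in Msh3KO and 18.7 ± 4.04 CPM in WT animals. The log2 difference was -0.54 ± 0.14 from Msh3KO (edgeR adjusted p = 0.101) and -0.50 ± 0.14 from WT (adjusted p = 0.0805), neither past the threshold of 0.05. Without Q140 F2 and Q140_Msh3KO M1 both passed it, at -0.63 (adjusted p = 0.0440) and -0.59 (adjusted p = 0.0303). The library Q140_Msh3KO M1 held the highest value of its genotype, 17.6 CPM. The interaction, taken as (Q140_Msh3KO minus Msh3KO) minus (Q140 minus WT), was 1.32 ± 0.20 (adjusted p = 0.0022), and it contains the comparison that chose the gene.

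Females and males gave like levels at the +45.3 kb peak. Q140 females averaged 5.17 ± 0.562 CPM and Q140 males 5.11 ± 0.246 CPM, against 19.0 ± 5.70 CPM in WT females and 18.4 ± 2.85 CPM in WT males (SD, n = 3 each). The Q140 effect in females minus that in males was -0.05 ± 0.31 on the log2 scale (edgeR adjusted p = 1.00). Of the Q140 females, F2, the library with a male-like share of counts on X, held 5.56 CPM, and F1 and F3 held 5.43 and 4.53 CPM.

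**Figure D1:**
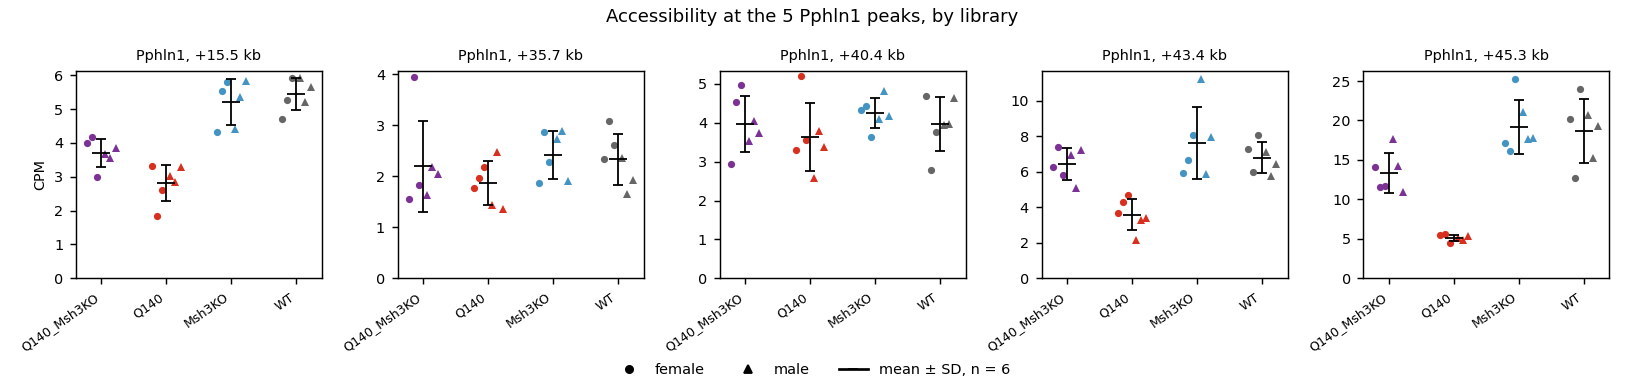
Accessibility (CPM, vertical axis from 0) at the 5 Pphln1 peaks, titled by distance from the start, for each library by genotype; circles are females, triangles males, and bars the mean ± SD of 6 animals. At +45.3 kb the Q140 libraries lie between 4.53 and 5.56 CPM, below all others.

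A second intron 5 peak lies +43.4 kb from the start (chromosome 15, 93441644 to 93442088). It held 5.06, 6.59 and 7.41 CPM in Q140_Msh3KO animals, 2.15, 3.52 and 4.70 CPM in Q140 animals, 5.88, 7.31 and 11.2 CPM in Msh3KO animals and 5.76, 6.78 and 8.10 CPM in WT animals. The Q140 group again lay apart from the other 3, and 3% of all tested peaks had Q140 wholly below WT. The fall in Q140 vs WT was 0.90 ± 0.17 (edgeR adjusted p = 2.3e-04). The described difference in Q140_Msh3KO vs Q140 was 0.83 ± 0.17, and in Msh3KO vs WT it was 0.19 ± 0.16.

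The +15.5 kb peak in intron 2 (chromosome 15, 93413696 to 93414276) showed a different order. It held 2.99, 3.76 and 4.18 CPM in Q140_Msh3KO animals, 1.85, 2.92 and 3.31 CPM in Q140 animals, 4.33, 5.44 and 5.83 CPM in Msh3KO animals and 4.70, 5.47 and 5.93 CPM in WT animals. Every Q140 animal lay below every WT animal, as in 3% of all tested peaks. Every Q140_Msh3KO animal also lay below every WT animal, and the share of all peaks for that was not counted. Q140 vs WT was -0.95 ± 0.16 (edgeR adjusted p = 3.2e-05). Q140_Msh3KO vs WT was -0.56 ± 0.15 (adjusted p = 0.0742), which did not pass. The 2 peaks of intron 3, at +35.7 kb and +40.4 kb, gave -0.30 ± 0.23 and -0.13 ± 0.17 in Q140 vs WT, and their groups overlapped.

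The start site of Pphln1 gave near-equal levels in all groups. No peak at it carries the symbol Pphln1, but the peak labelled Zcrb1, whose start lies beside it, covers the window printed above (chromosome 15, 93397919 to 93398665). It averaged 11.9 ± 0.987 CPM in Q140_Msh3KO, 11.6 ± 1.60 CPM in Q140, 11.5 ± 1.80 CPM in Msh3KO and 11.4 ± 2.07 CPM in WT animals (SD, n = 6 each). Q140 vs WT was 0.03 ± 0.13 on the log2 scale, and all groups overlapped. Summed over the 5 peaks with its label, Pphln1 held 29.7 ± 2.36 CPM in Q140_Msh3KO, 17.0 ± 1.49 CPM in Q140, 38.7 ± 4.59 CPM in Msh3KO and 37.2 ± 5.41 CPM in WT animals. The +45.3 kb peak held 45.5% of these counts. Peaks inside the gene that are labelled Zcrb1 or Prickle1 are not in this sum.

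Peaks labelled with other genes around Pphln1 were called at about the rate of all peaks. Within 200 kb of the +45.3 kb peak, 32 tested peaks carried the label of another gene, with a median log2 difference of -0.07 in Q140 vs WT. Of these 32, 3 were lower in Q140 and none higher, where 10.3% of all tested peaks were called and 6.11% were lower. A Yaf2 peak at -96.8 kb gave -1.28 ± 0.22 (edgeR adjusted p = 5.2e-05). Peaks labelled Prickle1 at 28.2 and 42.0 kb on the other side gave -0.70 ± 0.18 (adjusted p = 0.0054) and -0.90 ± 0.20 (adjusted p = 0.0019). Both lie inside Pphln1, which by RefSeq ends at 93491913, so their label gives the nearest start. Further peaks labelled Prickle1 also lie inside Pphln1 and were not called. None of the 32 passed in Q140_Msh3KO vs Q140, and the Yaf2 peak was lower in Q140_Msh3KO vs WT, at -0.92 (adjusted p = 0.0310).

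**Figure D2:**
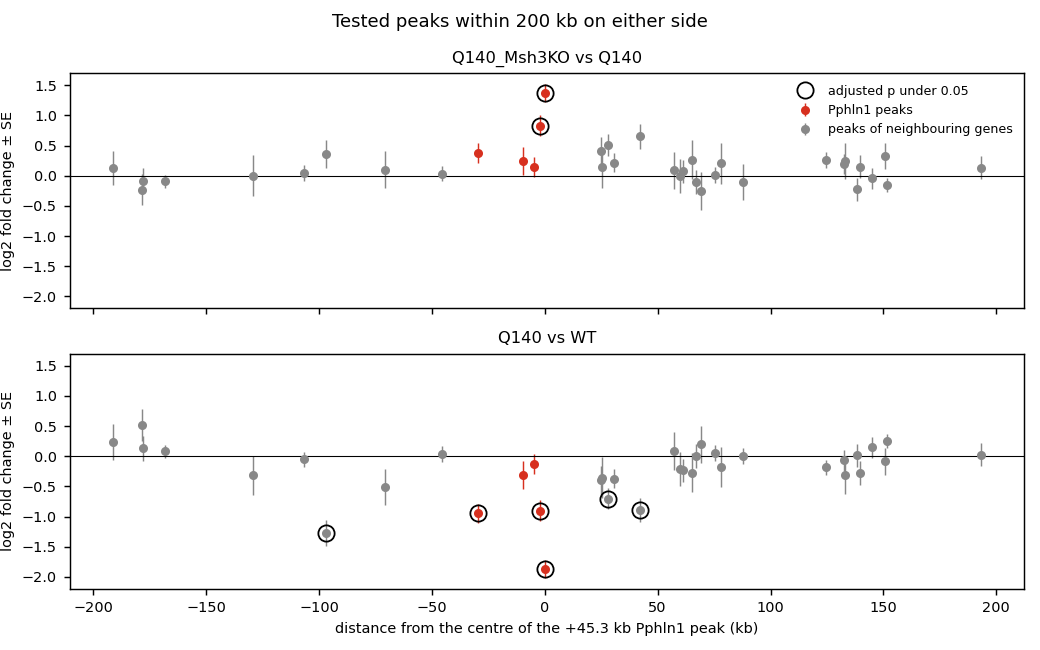
Log2 fold change ± SE (vertical axis) of tested peaks within 200 kb of the +45.3 kb Pphln1 peak, by distance from it in kb, for Q140_Msh3KO vs Q140 (top) and Q140 vs WT (bottom). Red marks peaks labelled Pphln1, grey peaks labelled with other genes, and rings an adjusted p under 0.05. Some grey peaks labelled Prickle1 lie inside Pphln1. The +45.3 kb peak, at distance 0, is the lowest point of the lower panel at -1.87.

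The 5 peaks most like the +45.3 kb peak over the 24 libraries, outside 1 Mb of it, were chosen by the smallest mean absolute difference of standardised log2 CPM. They lay in introns of Faf1, Lhpp, Saxo1 and Rgs12 and in intergenic DNA nearest to Cdh9. Their differences were 0.199 to 0.214 SD, against a median of 1.13 over 146079 peaks. The Cdh9 peak averaged 16.8 CPM in Q140_Msh3KO, 6.16 in Q140, 23.2 in Msh3KO and 21.7 in WT animals. The Rgs12 peak lies on chromosome 5, 66.5 kb past the end of Htt.

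Mphosph8 encodes MPP8, the chromodomain subunit of HUSH that binds methylated H3K9. Its 3 distal peaks fell in Q140 animals, where 6.11% of all tested peaks were lower, while its start site did not pass the test. By RefSeq these peaks lie inside Parp4, the neighbouring gene, so their label gives the nearest start and not a tested target. The -16.5 kb peak (chromosome 14, 56651554 to 56651881), within an RMER6A element of the ERVK family, held 3.51, 4.03 and 4.66 CPM in Q140_Msh3KO animals and 1.65, 2.42 and 3.40 CPM in Q140 animals. It held 3.76, 4.97 and 6.31 CPM in Msh3KO animals and 3.84, 5.38 and 6.32 CPM in WT animals. All Q140 animals lay below all animals of the other genotypes, and 3% of all tested peaks had Q140 wholly below WT. The gap to Q140_Msh3KO was narrow, from 3.40 to 3.51 CPM. Q140 vs WT was -1.09 ± 0.17 (edgeR adjusted p = 2.1e-05).

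The -20.7 kb peak of Mphosph8 (chromosome 14, 56647080 to 56648100) held 17.0, 18.3 and 20.5 CPM in Q140_Msh3KO, 10.7, 13.3 and 16.3 CPM in Q140, 17.3, 20.0 and 28.7 CPM in Msh3KO and 16.0, 21.2 and 25.1 CPM in WT animals. Q140 vs WT was -0.62 ± 0.13 (edgeR adjusted p = 6.1e-04), although 1 WT animal lay within the Q140 range. The -19.6 kb peak (56648380 to 56648955) averaged 6.81 ± 1.39 CPM in Q140_Msh3KO, 5.43 ± 0.704 CPM in Q140, 7.52 ± 1.24 CPM in Msh3KO and 8.40 ± 3.62 CPM in WT animals. It gave -0.62 ± 0.17 in Q140 vs WT (adjusted p = 0.0126), and WT F2 alone held 15.1 CPM. Without WT F2 the value was -0.40 (adjusted p = 0.119), which did not pass. The start site peak (56667653 to 56668861) averaged 36.6 ± 3.35 CPM in Q140_Msh3KO, 34.8 ± 5.55 CPM in Q140, 39.7 ± 6.02 CPM in Msh3KO and 36.4 ± 6.12 CPM in WT animals, with -0.06 ± 0.12 in Q140 vs WT.

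Tasor encodes the scaffold subunit of HUSH. Its intron 1 peak at +5.7 kb (chromosome 14, 27434198 to 27434796), which overlaps an Lx8 element of the L1 family, held 7.22, 9.05 and 12.0 CPM in Q140_Msh3KO animals and 4.84, 5.83 and 6.37 CPM in Q140 animals. It held 6.86, 10.3 and 11.2 CPM in Msh3KO animals and 6.31, 11.0 and 11.8 CPM in WT animals. The Q140 range met the WT range only through WT M2, at 6.31 CPM, and Q140 vs WT was -0.87 ± 0.15 (edgeR adjusted p = 8.4e-05). The start site of Tasor averaged 28.4 ± 3.67 CPM in Q140_Msh3KO, 29.6 ± 2.54 CPM in Q140, 27.9 ± 4.42 CPM in Msh3KO and 27.7 ± 4.97 CPM in WT animals, with 0.09 ± 0.12 in Q140 vs WT. The other 2 Tasor peaks, upstream of the start, gave 0.39 ± 0.22 and -0.21 ± 0.30 and did not pass.

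Atf7ip encodes a nuclear partner of SETDB1. Of its 21 tested peaks, 4 fell in Q140 vs WT and none rose, where 6.11% of all tested peaks were lower, and 2 of the 4 calls were lost in many alternatives. The -26.4 kb peak (chromosome 6, 136492215 to 136492670) held 2.87, 3.43 and 5.56 CPM in Q140_Msh3KO, 1.84, 3.31 and 4.16 CPM in Q140, 4.33, 4.73 and 5.92 CPM in Msh3KO and 3.43, 4.58 and 8.94 CPM in WT animals. The groups overlapped, and Q140 vs WT was -0.77 ± 0.19 (edgeR adjusted p = 0.0055). By RefSeq this peak lies inside Gm44140, so its label gives the nearest start and not a tested target. The +45.8 kb peak in intron 3 (136564458 to 136564780) held 1.69, 2.86 and 2.99 CPM in Q140_Msh3KO, 1.58, 2.13 and 2.60 CPM in Q140, 1.55, 2.64 and 3.05 CPM in Msh3KO and 2.57, 3.29 and 4.66 CPM in WT animals. Its difference was -0.69 ± 0.19 (adjusted p = 0.0140), and Q140 and WT overlapped at their edges.

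The +32.2 kb peak in intron 1 of Atf7ip (136550762 to 136551410) averaged 9.22 ± 0.726 CPM in Q140_Msh3KO, 7.27 ± 1.02 CPM in Q140, 9.76 ± 2.46 CPM in Msh3KO and 9.94 ± 1.80 CPM in WT animals. It gave -0.45 ± 0.15 in Q140 vs WT (edgeR adjusted p = 0.0352), which did not pass when any 1 of 13 libraries was left out (adjusted p = 0.0535 to 0.183). The +65.1 kb peak in intron 8 (136583880 to 136584084), on a (TG)n repeat, averaged 8.5 counts per library, with 1.37 ± 0.406 CPM in Q140_Msh3KO, 0.594 ± 0.245 CPM in Q140, 0.946 ± 0.368 CPM in Msh3KO and 1.30 ± 0.649 CPM in WT animals. It gave -1.16 ± 0.37 (adjusted p = 0.0322) and did not pass in 10 of 31 alternatives (adjusted p = 0.0503 to 0.133). The start site of Atf7ip averaged 27.5 ± 2.05 CPM in Q140_Msh3KO, 27.2 ± 3.57 CPM in Q140, 26.6 ± 4.71 CPM in Msh3KO and 28.6 ± 3.42 CPM in WT animals, with -0.07 ± 0.11 in Q140 vs WT.

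**Figure D3:**
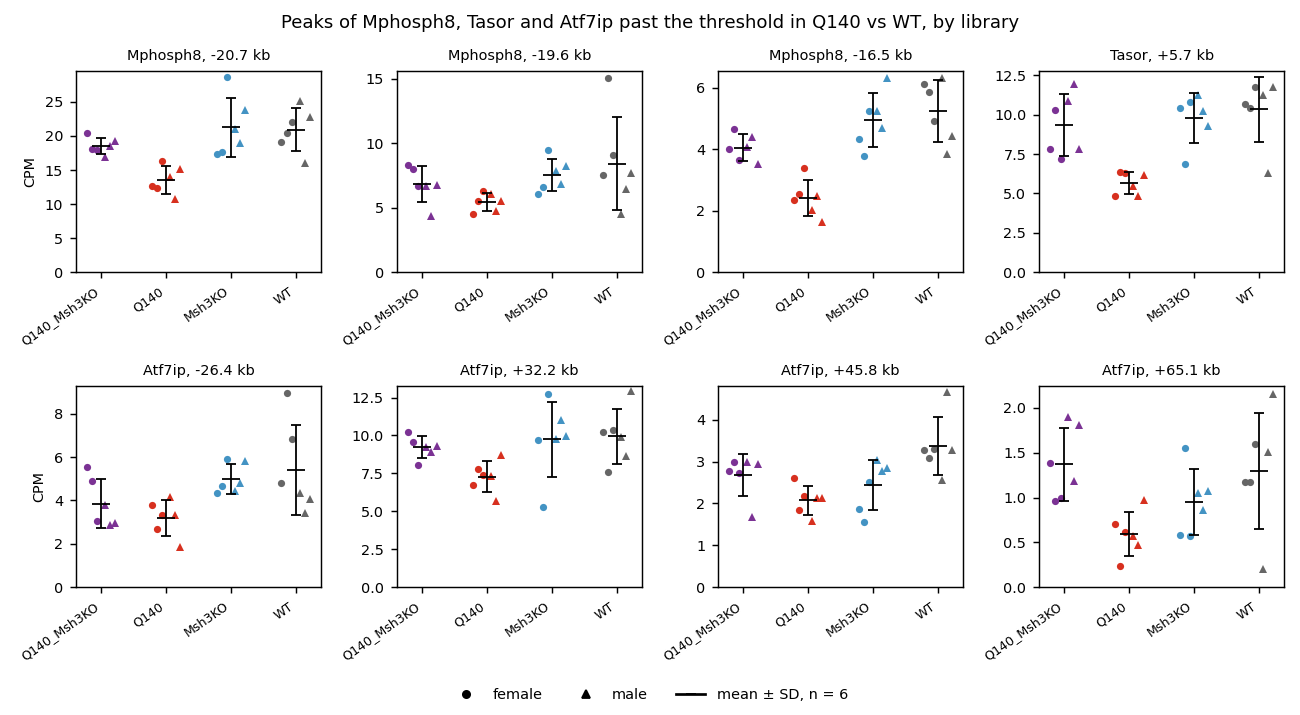
Accessibility (CPM, vertical axes from 0) by library and genotype at the 8 peaks of Mphosph8, Tasor and Atf7ip past the threshold in Q140 vs WT, titled by distance from the start; circles are females, triangles males, and bars the mean ± SD of 6 animals. At -16.5 kb of Mphosph8 the Q140 libraries, 1.65 to 3.40 CPM, lie below all others, and in the Atf7ip panels Q140 overlaps WT.

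Setdb1, Morc2a and Trim28 had no member peak past the threshold in any comparison, but held only 2, 3 and 1 tested peaks. In Q140 vs WT 10.3% of all tested peaks were called, so these few peaks cannot show a difference from the rest. Setdb1, the H3K9 methyltransferase gene, averaged 17.6 ± 2.43 CPM in Q140_Msh3KO, 18.4 ± 2.11 CPM in Q140, 18.9 ± 1.57 CPM in Msh3KO and 17.0 ± 1.04 CPM in WT animals at its start site, with 0.11 ± 0.11 in Q140 vs WT. Trim28, the co-repressor gene, averaged 48.5 ± 5.33 CPM in Q140_Msh3KO, 49.0 ± 4.54 CPM in Q140, 49.4 ± 5.15 CPM in Msh3KO and 50.1 ± 6.69 CPM in WT animals, with -0.03 ± 0.11. The 95% intervals of these log2 differences were -0.10 to 0.33 and -0.24 to 0.17. Morc2a, which encodes an ATPase of the pathway, had 3 peaks near its end at -0.43 to -0.03, and the peak over its start, labelled Tug1, gave 0.07 ± 0.11.

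Over all members, Q140 vs WT called 11 of 40 tested peaks, and all 11 were lower in Q140. These 11 are 27.5% of the members tested, against 10.3% of all tested peaks in either direction and 6.11% lower. Pphln1, which gave 3 of them, was chosen by a comparison that shares the Q140 libraries. The share and the median over members are therefore not independent of that choice. The 3 labelled Mphosph8 lie inside Parp4, and the -26.4 kb peak labelled Atf7ip lies inside Gm44140. The median log2 difference of the 40 was -0.22, with 33 below 0, against -0.01 and 51.0% over all tested peaks. In 4 members, 3 of Pphln1 and 1 of Mphosph8, all 6 Q140 libraries lay below all 6 WT libraries, as in 3% of all tested peaks. None of the 5 members at a start site was called, at -0.07 to 0.11, against 3.33% of all start site peaks. Of the other 35 members 11 were called, against 11.2% of all other peaks. Repeats overlapped 9 of the 40, against 22.2% of all tested peaks.

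In Q140_Msh3KO vs Q140, the comparison that chose Pphln1, 4 members were higher and 0 lower, where 0.529% of all peaks were called and 0.31% were higher. They were the +45.3 kb and +43.4 kb peaks of Pphln1, the -16.5 kb peak of Mphosph8 (0.72 ± 0.18) and the +5.7 kb peak of Tasor (0.70 ± 0.15). The Mphosph8 call was lost in 21 of 32 alternatives and the Tasor call in 6 of 32. Without Q140 F2 and Q140_Msh3KO M1 the count was 2, both of Pphln1.

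Msh3KO vs WT called 0 members, where 0.013% of all peaks were called. edgeR gave 1 member and 4875 of all 146155 peaks at an unadjusted p under 0.05, and DESeq2 and limma-voom called 0. The 40 differences ran from -0.60 to 0.23, with a median of -0.01. Q140_Msh3KO vs Msh3KO and Q140_Msh3KO vs WT each called 0 members by edgeR, DESeq2 and limma-voom, where edgeR called 0.116% and 0.525% of all peaks, and each had 4 members at an unadjusted p under 0.05. Over all 146155 peaks that p was reached by 11220 and 14353 in the same order. The interaction called the +45.3 kb Pphln1 peak alone, where 0.0226% of all peaks were called, and 10 members and 10696 of all peaks had an unadjusted p under 0.05. The Q140 effect differed between the sexes at 0 members and at 0% of all peaks by edgeR, with DESeq2 and limma-voom also at 0 members. At an unadjusted p under 0.05 there were 4806 peaks, and the 1 member among them was the -19.6 kb peak of Mphosph8, at -0.69 ± 0.33.

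**Figure D4:**
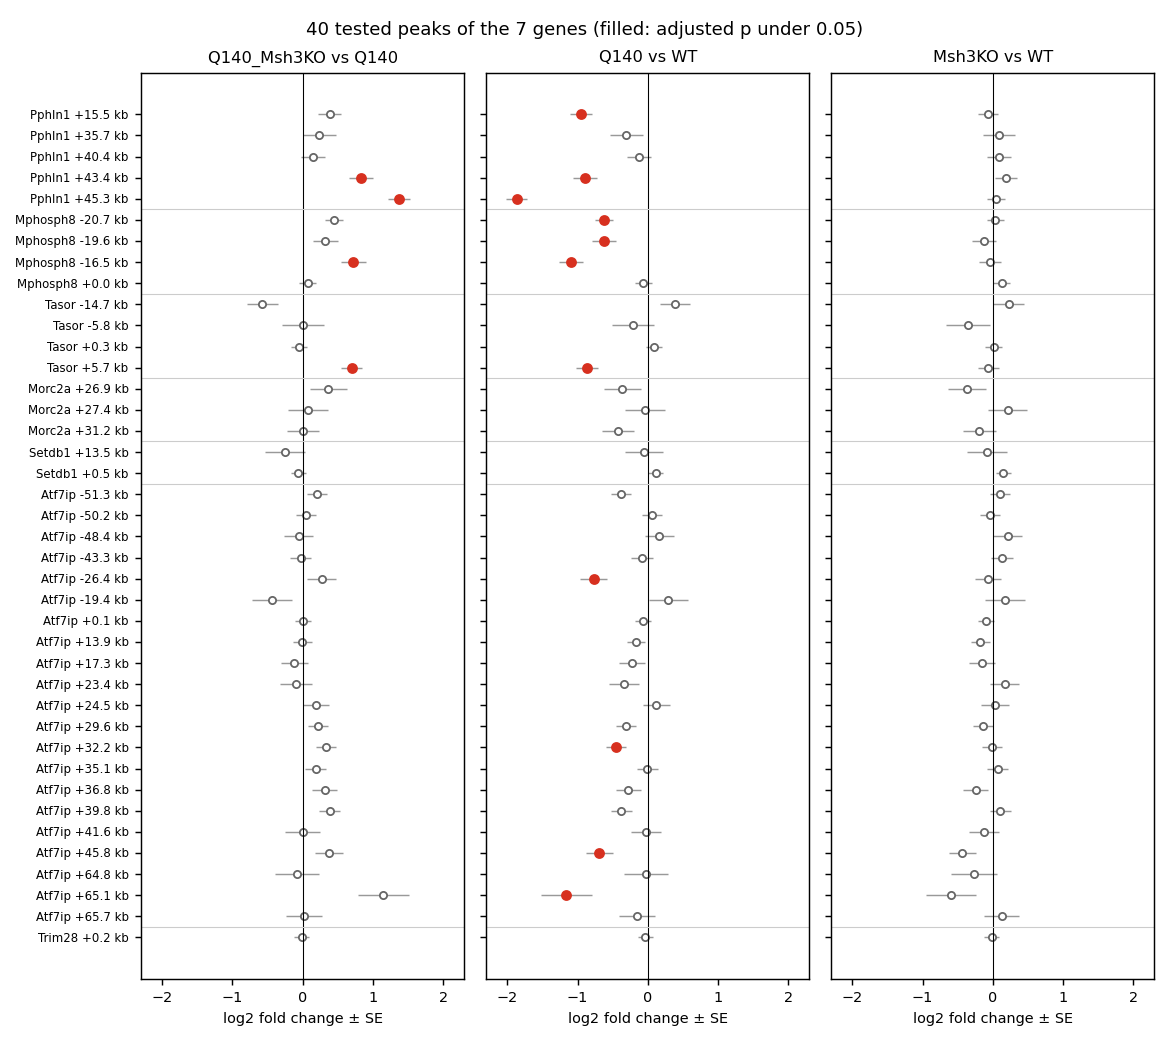
Log2 fold change ± SE (horizontal axes) of the 40 tested peaks, 1 row each by gene and distance from the start, for Q140_Msh3KO vs Q140, Q140 vs WT and Msh3KO vs WT; filled red points have an adjusted p under 0.05. In Q140 vs WT 11 points are filled, all left of 0, and in Msh3KO vs WT none is.

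With counts summed over all peaks that carry a gene's label, 3 of the 7 sums fell in Q140 vs WT, where 7.94% of 20851 genes were lower. Pphln1 gave -1.12 ± 0.08 (edgeR adjusted p = 4.2e-10), Mphosph8 -0.33 ± 0.08 (adjusted p = 0.0046) and Atf7ip -0.19 ± 0.04 (adjusted p = 0.0034). Pphln1 was chosen by a comparison of Q140_Msh3KO and Q140 animals, so its sums here are not independent of the choice. The Mphosph8 sum includes its distal peaks, which lie inside Parp4, and its start site peak alone gave -0.06 ± 0.12. The Atf7ip sum includes upstream peaks that lie inside Gm36897 or Gm44140. Morc2a at -0.32 ± 0.16, Tasor at -0.09 ± 0.07, Setdb1 at 0.10 ± 0.08 and Trim28 at -0.03 ± 0.07 did not pass. In Q140_Msh3KO vs WT, Pphln1 alone was lower, at -0.32 ± 0.08 (adjusted p = 0.0467), where 0.532% of genes were lower.

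Other genes of the pathway were counted in Q140 vs WT, where 10.3% of all tested peaks were called. Among HUSH-linked genes 5 of 7 had peaks, and 0 of their 12 peaks passed. Among H3K9 methyltransferases and readers 8 of 10 had peaks, and 1 of 31 was lower, in an intron of Cdyl (-0.75 ± 0.18, edgeR adjusted p = 0.0032), which encodes a chromodomain protein. Among genes linked to TRIM28 and DNA methylation 10 of 12 had peaks, with 4 higher and 3 lower of 71, a share near that of all tested peaks. The largest of these was labelled Dnmt3a, a DNA methyltransferase gene, but lies inside Dtnb by RefSeq (chromosome 12, 3746152 to 3746607). It averaged 4.58 ± 1.11 CPM in Q140_Msh3KO, 8.79 ± 1.58 CPM in Q140, 3.61 ± 0.912 CPM in Msh3KO and 3.80 ± 0.748 CPM in WT animals (SD, n = 6 each), with 1.22 ± 0.17 in Q140 vs WT (adjusted p = 1.5e-06). It was also the 1 pathway peak past the threshold in Q140_Msh3KO vs Q140, at -0.93 ± 0.16 (adjusted p = 0.0015), and in Msh3KO vs WT edgeR called 0 of the 3 lists' peaks. Trim24, which encodes a relative of TRIM28, had 2 higher peaks, at 0.83 ± 0.26 (adjusted p = 0.0306) and 0.82 ± 0.20 (adjusted p = 0.0037). The first lies in an intron of Trim24, and the second lies -136 kb from its start, inside Gm38791 by RefSeq. A further higher peak, named after its values were seen, was labelled Dnmt3a but lies inside Dtnb. It gave 0.62 ± 0.12 (edgeR adjusted p = 4.7e-04). The 3 lower peaks, named after their values were seen, were labelled Dnmt3a, at -0.61 ± 0.13 (adjusted p = 0.0014) and -0.50 ± 0.15 (adjusted p = 0.0181), and Trim33, at -0.54 ± 0.17 (adjusted p = 0.0380). The stronger of these lower Dnmt3a peaks lies inside Dnmt3a, +1.26 kb from its start, and the other lies inside Dtnb.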

How the data were processed

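The authors deposited 1 table of raw read counts per peak for 147020 peaks and 24 libraries, with each peak's position, class and nearest gene per the file headers. All 24 count columns were used, 0 others held sample values, and 281 peaks had no symbol and stayed out of sums per gene. The submitters' processing notes name build GRCm38 and the tools BWA, SAMtools, Picard, featureCounts and MACS2. Settings, read shifting and duplicate handling were not given in the sources used here. Peaks were shared by all libraries, so sites open in 1 genotype alone can be diluted, and reads outside peaks are unknown.

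Groups followed the labelled genotypes. Counts were tested with edgeR 4.0.16 (R 4.3.3): TMM, filterByExpr at a count minimum of 10, and a robust quasi-likelihood fit of genotype and sex to all 24 libraries, with Benjamini-Hochberg adjustment over 146155 peaks at 0.05. The SE is the log2 fold change over the root of F. Sums per gene had the same test over 20851 genes. Every Pphln1 peak, every member's start site and each called member was named. Called pathway peaks were named by size of change, at most 3 per list and comparison. The remaining called pathway peaks were named after their values were seen. The procedure was tested on simulated data. Alternatives were DESeq2 1.42.0, limma-voom (limma 3.58.1), total-count scaling, no filter, a count minimum of 30, no sex term, a replicate block, and leaving out libraries. Members and lists were chosen with earlier results of these data known.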

Additional observations from a re-analysis of the deposited data

Results flagged for a closer look

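Among the 18 peaks given in full, 72 groups of 6 libraries were examined for a library far from the rest, and 4 were found, where chance gives about 1 in 20. Q140_Msh3KO F2 held 3.94 CPM at the +35.7 kb Pphln1 peak, against 1.56 to 2.19 CPM in the other animals of its genotype. WT M2 held 6.31 CPM at the +5.7 kb Tasor peak, against 10.4 to 11.8 CPM. At the +45.8 kb Atf7ip peak, Q140_Msh3KO M2 held 1.69 CPM, against 2.74 to 2.99 CPM, and WT M2 held 4.66 CPM, against 2.57 to 3.31 CPM. At the +45.3 kb Pphln1 peak the Q140 effect differed with and without Msh3, by an interaction of 1.32 on the log2 scale (edgeR adjusted p = 0.0022), which contains the comparison that chose the gene.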

How the results depend on the processing

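In Q140 vs WT, 9 to 12 members were called across all alternatives, and 3 gene sums in each. At the +45.3 kb Pphln1 peak the log2 difference in Q140 vs WT ran from -1.95 to -1.75, and the interaction from 1.21 to 1.42, past the threshold in each. In Q140_Msh3KO vs Q140 the count of 4 was 2 to 4 when 1 library was left out, with 2 without Q140_Msh3KO F2, M1 or M2 or Q140 M1 or M2, and 2 without Q140 F2 and Q140_Msh3KO M1. Q140_Msh3KO vs Msh3KO, with 0 called, gave 1 at a count minimum of 30, 1 without Q140 F2 and Q140_Msh3KO M1, and 0 to 1 when 1 library was left out, 1 being without Q140_Msh3KO M1 or Msh3KO F2. Q140_Msh3KO vs WT, with 0 called, gave 1 with total-count scaling, 2 at a count minimum of 30, 1 without both libraries, and 0 to 1 when 1 was left out, 1 being without Q140_Msh3KO M1 or WT F2. The cause of these changes was not tested. With the replicate block, Q140_Msh3KO vs WT also gave 1, Q140_Msh3KO vs Q140 gave 4 and Q140 vs WT 11. Among those 4, the -20.7 kb peak of Mphosph8 took the place of its -16.5 kb peak. Libraries that share a replicate label correlated at -0.37 to 0.46 (median -0.02), and those of other labels at -0.51 to 0.43 (median -0.07). Of 24 libraries, 13 correlated best with a library of their own label, among the 3 labels of their sex. That is more than an even spread over the 3 labels would give. Of the pairs compared, 36 shared a label and 72 did not. What the replicate numbers mean is not given, and whether they mark a shared batch or litter was not tested. They were not taken as pairs in the main fit. Of the values for named peaks under alternatives, 51 lost the threshold, 13 gained it and none changed sign past it. The sex comparison was not run with single libraries left out. Peaks under about 10 counts per library limit what can be detected in Atf7ip introns.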
